A study of Mus musculus with 6 samples.

Results

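Nuclear-encoded respiratory chain subunit genes are the genes for the protein parts of mitochondrial complexes I to V that are transcribed in the nucleus. They were taken from the deposited lung count table as every gene whose symbol starts with Ndufa, Ndufb, Ndufc, Ndufs, Ndufv, Uqcr, Cox4, Cox5, Cox6, Cox7, Cox8 or Atp5, plus Sdha, Sdhb, Sdhc, Sdhd and Cyc1, leaving out the Ndufaf assembly factors and pseudogene symbols ending in -ps. This gave 90 genes of the 25860 in the table: 42 of complex I, 4 of complex II, 9 of complex III, 18 of complex IV and 17 of complex V. RNA came from normal-looking lung of 6 mice, 3 of them RAG1-/- (replicates 1, 2 and 3) and the other 3 RAG1-/- Sgo1-/+ (replicates 4, 5 and 6), untreated and 12 months old, on a C57BL/6 background. Both groups lack Rag1, which is needed to rearrange antigen receptor genes, so neither should form mature B or T cells. The RAG1-/- Sgo1-/+ mice also lack 1 copy of Sgo1, the gene of the Shugoshin-1 protein that protects sister chromatid cohesion, in every cell of the body, and are used as a model of chromosome instability. Each mouse gave 1 library, so P-values measure the spread between these mice.

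The respiratory chain passes electrons from NADH (complex I) and succinate (complex II) through ubiquinone, complex III and cytochrome c to oxygen at complex IV, and the proton gradient this builds drives ATP synthase (complex V). Most subunits are encoded in the nucleus and imported, while a small core set is encoded by mitochondrial DNA. Several subunits of complex IV exist as a widespread form and a form restricted to certain tissues, and the the lung is known to express the Cox4i2 form. Promoters of these genes are known to carry sites for NRF1, GABP (an ETS factor), YY1 and ERR factors, which tie the nuclear genes of the chain to each other.

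To show what these promoters look like, 4 of them and a contrasting one are printed, 200 bases up to the start of transcription, 5′ to 3′ on the gene's strand, from RefSeq on GRCm38.p6. Capitals mark matches on either strand to GCGCANGCG (NRF1), CCGGAAG (ETS/GABP) or TCAAGGTCA (ERR). Cox6a1 is the widespread form of a complex IV subunit and its stretch holds NRF1 letters, in part as overlapping matches on both strands, and ETS letters near the start. Atp5g3 is the leading gene of the ATP synthase ring and holds the ERR letters. Ndufs5 and Atp5e are members with lower levels in RAG1-/- Sgo1-/+ described further on, with NRF1 and ETS letters respectively. Cox8b, a form restricted to muscle and brown fat, is the contrast and holds none of the motifs searched.
Cox6a1, chr5:115348959-115349158, minus strand: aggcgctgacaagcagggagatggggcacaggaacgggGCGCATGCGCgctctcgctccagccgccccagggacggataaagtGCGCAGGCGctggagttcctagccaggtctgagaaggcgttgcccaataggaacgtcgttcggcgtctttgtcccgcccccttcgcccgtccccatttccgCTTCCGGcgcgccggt
Atp5g3, chr2:73911327-73911526, minus strand: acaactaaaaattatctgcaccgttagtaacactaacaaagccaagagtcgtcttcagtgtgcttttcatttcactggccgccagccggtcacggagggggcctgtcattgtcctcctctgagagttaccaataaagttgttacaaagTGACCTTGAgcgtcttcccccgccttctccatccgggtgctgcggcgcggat
Ndufs5, chr4:123718187-123718386, minus strand: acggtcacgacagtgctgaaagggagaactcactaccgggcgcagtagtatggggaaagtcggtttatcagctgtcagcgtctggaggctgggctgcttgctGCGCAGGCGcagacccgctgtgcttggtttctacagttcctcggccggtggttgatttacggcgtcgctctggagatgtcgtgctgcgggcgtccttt
Atp5e, chr2:174464102-174464301, minus strand: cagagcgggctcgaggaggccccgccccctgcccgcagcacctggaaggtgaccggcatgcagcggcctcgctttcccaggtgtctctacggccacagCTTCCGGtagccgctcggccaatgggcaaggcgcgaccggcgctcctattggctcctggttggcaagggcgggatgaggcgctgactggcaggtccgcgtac
Cox8b, chr7:140900447-140900646, minus strand: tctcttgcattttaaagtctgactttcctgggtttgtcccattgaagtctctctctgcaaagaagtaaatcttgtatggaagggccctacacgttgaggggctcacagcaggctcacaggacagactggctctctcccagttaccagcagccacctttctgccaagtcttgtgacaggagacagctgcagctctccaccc

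Of the 90 genes, 70 had a promoter window in the reference (250 bases before to 50 after the start). The NRF1 letters were in 20 of them (28.6%), against 7.03% of all 27025 genes with a window and 13.2% of the 12649 that were tested here. The ETS/GABP letters were in 17 (24.3%, against 9.93% and 17.2%). AAGATGGCG, the YY1 letters, were in 7 (10%, against 1.64% and 2.94%) and the ERR letters in 2 (2.86%, against 0.466% and 0.3%). At least 1 of the 4 motifs was in 36 members (51.4%), against 16.9% of all genes and 29.4% of tested genes. These are matches of letters, with no measure of binding. Of the lower members described further on, Ndufs5, Atp5e and Ndufs4 (YY1) held letters, while Ndufa4, Ndufa7, Ndufa12, Ndufv2 and Cox8b held none. The widespread Atp5b and Cox7a2 held none either, as Cox8b did. The part of these motifs in the levels was not tested.

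The libraries held 3205822 to 9366774 counts on genes, of which 14837 to 47882 were on the 90 members. A count of 3, taken as the least that is detected, stood for 0.320 to 0.936 CPM, the unit of all levels here (counts per 1000000 counts on genes in the same library). Sgo1 had 6, 2 and 4 counts in RAG1-/-, against 6, 0 and 2 in RAG1-/- Sgo1-/+, too few to check the deleted copy, and Rag1 had 8 to 24 counts, on which part of the gene is not given. The summed level of 7 alveolar type 2 markers was 28942 to 40016 CPM. Of the 6 libraries, 3 stood apart. Replicate 1 had 7717 Xist counts against 4 to 8 elsewhere and 2 counts of the Y-linked Ddx3y against 342 to 1228, so it was the one female, and it had the highest sum of white adipocyte markers (729 CPM against 60.6 to 115). Replicate 2 had 908 CPM of B and plasma cell markers against 16.2 to 20.8 elsewhere, which goes against the RAG1-/- label of that library. Replicate 6 had 6512 CPM of macrophage markers against 407 to 867, of which the gene Chil3 gave 6083 CPM. Cd68, Mrc1 and Ear2 were also highest in replicate 6, while Marco (9.98 CPM there) and Siglecf (6.24 CPM there) were not. The sums, medians and counts over the members are therefore also given without each of these 3 libraries.

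The members were measured at very unequal depth. Of the 90, 85 passed the filter of at least 10 counts summed over the libraries. The other 5 were Cox8a, Cox8c and Uqcr11, which were listed at 0 in every library, Sdhd with 2 counts each in replicates 4 and 6, and Cox7b2 with 2 counts in replicate 4. Sdhd anchors complex II in the membrane, Cox8a is the widespread form of a complex IV subunit and Uqcr11 is a small complex III subunit, and since every respiring cell uses them their listing says nothing of expression. The mean level was 100 CPM or more for 9 members and under 5 CPM for 10, and the median over tested members was 35.3 CPM, against 19.6 CPM over all tested genes. Of the 13 protein genes of mitochondrial DNA 0 are in the table, so the subunits it encodes were not analysed here.

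Levels can be compared between genes only per length of transcript. They also depend on how reads that map to more than 1 place were counted, which is not given. Cox8a and Uqcr11 stood at 0, and of the glycolysis genes Gapdh at 22.2 and Aldoa at 234 CPM per kilobase. The part of such reads in the ranks below was not tested. In CPM per kilobase, averaged over the 6 libraries, the highest member was Atp5g3 (321), a gene for the rotating c ring of ATP synthase. In complex IV it was Cox6a1 (245), followed by Cox4i1 (223). In complex III it was Uqcr10 (197), a small subunit. In complex I it was Ndufc2 (132), an accessory subunit, just ahead of Ndufa4 (127). In complex II it was Sdha (68.6), the flavoprotein that oxidises succinate. The F1 subunits alpha and beta of ATP synthase, Atp5a1 and Atp5b, make up the catalytic head and stood at 183 and 182.

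The widespread form led in every isoform family with both members measured. Cox4i1 made up 90.7 to 95.3% of the Cox4i1 and Cox4i2 level per length and Cox4i2, the lung form, 4.68 to 9.32%. Cox6a1 made up 88.5 to 91.2% against the muscle form Cox6a2, and Cox7a2 97.6 to 100% against the muscle form Cox7a1, which had 0 to 7 counts. Cox6b2, known from testis, made up 11.02 to 29.1% of its pair with Cox6b1. In none of these 4 pairs were the groups apart. The shares hold for the counts as listed, and the part of multiply mapped reads in them was not tested.

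Within 2 families the groups did not overlap in their make-up, and how often this holds for other gene pairs was not computed. Atp5g3 made up 90.0, 90.4 and 89.9% of the 3 c-subunit genes in RAG1-/-, against 88.2, 89.0 and 86.6% in RAG1-/- Sgo1-/+ (90.1 ± 0.247 against 87.9 ± 1.26, mean ± SD, n = 3 each; exact two-sided permutation P = 0.1, the smallest that 3 against 3 allows). Atp5g2 made up 8.58 ± 0.149% against 10.7 ± 1.06%, but 35.8% of its 75-base words also occur in other transcripts, so reads could have been shared with a copy. Ndufa4l2, a relative of Ndufa4 known to be induced by low oxygen, made up 6.86, 9.34 and 5.94% of the pair in RAG1-/-, against 12.9, 9.54 and 11.6% in RAG1-/- Sgo1-/+ (exact two-sided permutation P = 0.1). These shares rest on the transcript lengths used, such as 2656 bases for Atp5g1, whose share was 1.01 to 1.66%. The Ndufa4l2 level itself overlapped between the groups, at 10.04, 14.1 and 9.69 CPM against 14.1, 11.5 and 10.6. That of Ndufa4 did not and was lower in RAG1-/- Sgo1-/+, as described further on.

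The question of the comparison is what the loss of 1 Sgo1 copy does to lung transcripts on a RAG1-/- background. Added over all 90 genes, the chain made up 0.511, 0.473 and 0.498% of counts in RAG1-/-, against 0.445, 0.461 and 0.463% in RAG1-/- Sgo1-/+. The groups did not overlap, and the mean sum was 7.64% lower in RAG1-/- Sgo1-/+ (4940 ± 194 against 4563 ± 98.3 CPM, mean ± SD, n = 3 each). It was 6.01% lower without replicate 1, 9.56% without replicate 2 and 8.31% without replicate 6. Markers of some other cells had unequal mean sums too. The 4 red cell markers in the table summed to 2736, 4713 and 7349 CPM in RAG1-/-, against 2091, 3813 and 2558 in RAG1-/- Sgo1-/+, with 4 of 4 below 0 in log2 fold change and 3 at an unadjusted P under 0.05. The 6 ciliated cell markers summed to 1860, 1398 and 1341 CPM against 1701, 2017 and 1742, with 6 of 6 above 0 and 1 (Foxj1) at that P. The 8 pericyte markers summed to 294, 384 and 333 CPM against 309, 306 and 209, with 6 of 8 below 0 and 0 at that P. All 3 sums overlapped between the groups, and the part of these cells in the members' values was not tested. In bulk tissue, fewer cells of a type and less RNA per cell cannot be told apart. Complex I, the NADH oxidising entry point, summed to 1674, 1546 and 1660 CPM in RAG1-/-, against 1449, 1476 and 1469 in RAG1-/- Sgo1-/+ (9.96% lower). Complex II gave 376, 372 and 344 against 314, 341 and 333 CPM (9.54% lower). Both complexes had every RAG1-/- library above every RAG1-/- Sgo1-/+ library.

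ATP synthase was apart by a small margin, with 1583, 1506 and 1545 CPM against 1446, 1498 and 1444 (5.30% lower). Complex III overlapped, with 675, 595 and 641 CPM against 551, 567 and 615 (9.31% lower), and so did complex IV, with 805, 711 and 788 against 689, 729 and 766 (5.16% lower). In both, replicate 2 was the lowest RAG1-/- library and replicate 6 the highest RAG1-/- Sgo1-/+ library. With Ndufa4 and Ndufa4l2 counted with complex IV, the log2 ratio of the complex I sums was -0.13, against -0.15 as counted here. The complex IV sum above leaves both out. Ndufa4 had a mean of 93.0 CPM in RAG1-/- against 62.2 in RAG1-/- Sgo1-/+, and Ndufa4l2 11.3 against 12.1. Counted there, they would widen the complex IV difference, so the order of the complexes depends in part on where Ndufa4 is placed. Without replicate 1, 2 or 6 the log2 ratio of the complex I sums was -0.13, -0.19 and -0.15, against -0.15 with all libraries. Without the same libraries complex II was 8.05, 8.50 and 10.1% lower, complex III 6.52, 12.2 and 12.3% and complex V 4.11, 6.47 and 4.70%. Complex IV moved most, at 2.84% lower without replicate 1, 8.55% without replicate 2, 7.66% without replicate 6 and 2.65% without replicate 4.

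**Figure D1:**
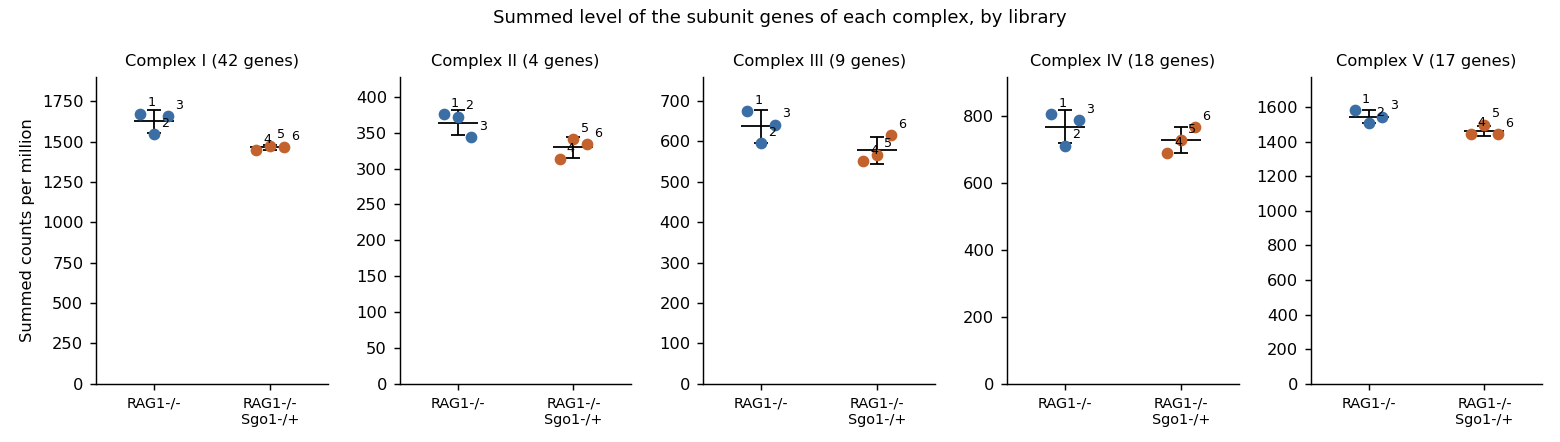
Summed CPM (y axis) of the subunit genes of each complex in the 3 RAG1-/- (blue) and 3 RAG1-/- Sgo1-/+ (orange) libraries. Numbers give the replicate, the wide bar is the mean and the whiskers are 1 SD. The groups do not overlap for complexes I, II and V and overlap for III and IV.

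By the edgeR quasi-likelihood test, 0 of the 85 tested members passed an adjusted P under 0.05 and a 2-fold difference, as did 0 of all 17231 tested genes (0%); 976 genes had an unadjusted P under 0.05. The smallest adjusted P of any member was 0.832, which all 10 members discussed next shared. DESeq2 called 1 gene and 0 members. Below that threshold the members lay to one side. At an unadjusted P under 0.05, 10 members (11.8% of those tested) were lower in RAG1-/- Sgo1-/+, against 2.52% of all tested genes, and 0 were higher, against 3.15%. Without replicate 1 these were 8.33% of members against 3.44% of genes, without replicate 2 5.95% (5 members) against 1.69%, without replicate 3 7.06% (6 members) against 1.53%, and without replicate 6 13.1% against 2.47%.

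The median log2 fold change (RAG1-/- Sgo1-/+ against RAG1-/-) of the 85 members was -0.12, against 0.03 for all tested genes, and 65 members (76.5%) were below 0, against 45.1% of genes. The medians by complex were -0.13 for I, -0.20 for II, -0.11 for III, -0.12 for IV and -0.14 for V. Those of the smaller complexes moved with single libraries: complex II was -0.09 without replicate 6, -0.11 without replicate 4 and -0.13 without replicate 1, complex III -0.01 without replicate 1 and -0.19 without replicate 6, complex IV -0.06 without replicate 3, and complex V -0.09 without replicate 3. Without replicate 1, 2 or 6 the median of all members was -0.10, -0.17 and -0.14. In 11 members every RAG1-/- library was above every RAG1-/- Sgo1-/+ library (12.9% of tested members, against 5.54% of all tested genes), and in 0 every one was below (against 6.24%). The 75 members above an unadjusted P of 0.05 had a median of -0.11, with 55 of them below 0.

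Member transcripts are short, with a median of 757 bases against 2817 over all tested genes, and short abundant transcripts outside the chain lay to the same side. Of 556 other genes under 1000 bases with a mean of at least 10 CPM, a limit chosen after the values were seen, the median was -0.03, with 57.6% below 0, 7.37% lower at an unadjusted P under 0.05 and 2.34% higher. The 9834 other genes of 1000 bases or more at that level had a median of 0.03, with 2.26% lower and 4.08% higher. The part of transcript length in the members' values was not tested.

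**Figure D2:**
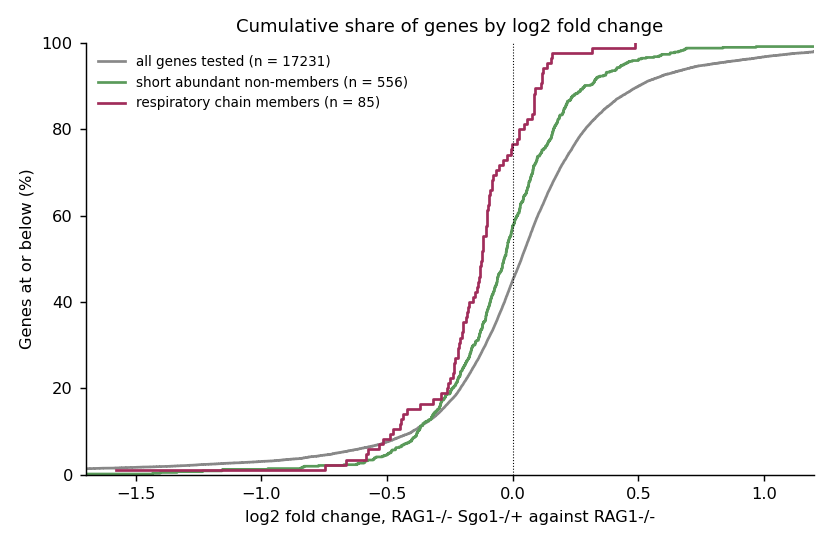
Cumulative share of genes (y axis, percent) at or below each log2 fold change (x axis) for all 17231 tested genes (grey), 556 non-members under 1000 bases with 10 CPM or more (green) and the 85 tested members (red). At 0 the curves stand at 45.1%, 57.6% and 76.5%; the x axis ends at -1.7 and 1.2.

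Of the 42 complex I genes, 6 (14.3%) had an unadjusted P under 0.05 and were lower, against 11.8% of all tested members and 2.52% of all tested genes. Ndufa4, placed here by its symbol although it is known as a subunit of complex IV, had 89.0, 89.7 and 100.2 CPM in RAG1-/-, against 62.4, 71.1 and 53.0 in RAG1-/- Sgo1-/+. The groups were apart by 17.9 CPM at their nearest, and the log2 fold change was -0.58 (SE 0.14, edgeR unadjusted P = 0.00212, adjusted P = 0.832). Ndufs4, an accessory subunit needed to finish the electron-entry arm of complex I, had 47.6, 38.8 and 44.2 CPM against 29.1, 33.5 and 30.6, with a log2 fold change of -0.49 (SE 0.14, edgeR unadjusted P = 0.00665). Ndufv2, a core subunit of that arm that carries an iron-sulfur cluster, had 36.8, 32.5 and 42.5 CPM against 23.4, 30.4 and 29.0 (log2 fold change -0.44, SE 0.17, edgeR unadjusted P = 0.0252). In all 3 genes the groups did not overlap.

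The accessory subunit Ndufa7 had 53.5, 44.2 and 60.2 CPM in RAG1-/-, against 36.6, 40.8 and 27.5 in RAG1-/- Sgo1-/+, with a log2 fold change of -0.58 (SE 0.18, edgeR unadjusted P = 0.00819). Ndufa12, another accessory subunit of the electron-entry arm, had 19.5, 19.4 and 22.4 CPM against 12.1, 15.4 and 16.8 (-0.47, SE 0.19, edgeR unadjusted P = 0.0346). Ndufs5, whose promoter is printed above, had 20.9, 22.8 and 26.6 CPM against 18.8, 13.7 and 19.3 (-0.45, SE 0.20, edgeR unadjusted P = 0.0463). The groups were apart in these as well, for Ndufs5 by a small margin between replicates 1 and 6. Of the 75-base words of Ndufa12 and Ndufs5, 14.6% and 15.7% occur in transcripts of other genes, so their counts may hold reads of those, while Ndufa4, Ndufs4, Ndufa7 and Ndufv2 had 0%.

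The groups overlapped in the further core subunits of complex I given here. Ndufs1, the large iron-sulfur subunit, had 51.9, 54.3 and 52.8 CPM against 43.2, 47.2 and 58.3. Ndufs3, another core subunit, had 12.9, 13.5 and 16.8 CPM against 6.87, 13.5 and 9.36, with replicate 5 at the level of replicate 2. Ndufv1, the NADH binding subunit, Ndufs7 and Ndufs8, both iron-sulfur subunits near ubiquinone, overlapped between the groups too, at 49.3 to 69.5, 30.2 to 45.5 and 26.1 to 41.1 CPM over all 6 libraries. Of the 42 complex I genes, 32 were below 0 in log2 fold change, with a range of -0.66 to 0.13. The 3 X-linked members, Ndufa1, Ndufb11 and Cox7b, did not stand out in the female library, at 35.2, 75.6 and 42.9 CPM against ranges of 29.3 to 41.9, 70.2 to 85.5 and 31.1 to 48.9 in the others.

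Some complex I counts lay on copies of the gene. Ndufb4b and Ndufb4c, copies of the accessory subunit Ndufb4, had 126 to 574 and 128 to 502 counts in the libraries, against 43 to 93 for Ndufb4 itself, and 17.2% of the 75-base words of Ndufb4 occur in other transcripts, most of all in Ndufb4c. Ndufs6b had 93 to 250 counts against 18 to 82 for Ndufs6, a subunit that carries zinc, and Ndufa11b had 62 to 230 against 48 to 159 for Ndufa11, a membrane subunit. Ndufs6b and Ndufa11b are annotated as pseudogenes. Ndufs6, Ndufa11 and Ndufa11b had 1.35%, 0.434% and 1.43% of their words in other transcripts. The values of Ndufb4 and its copies cannot be split with certainty, and for Ndufb4b, Ndufb4c and Ndufs6b no words were counted. In all 7 genes the groups overlapped.

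The other accessory subunits of complex I showed how far a gene could swing within a group. Ndufa5 had 15.3, 14.6 and 16.0 CPM against 8.49, 11.9 and 22.8, so that replicate 4 was the lowest and replicate 6 the highest of all. Ndufb2 had 5.87, 4.04 and 4.84 CPM against 3.23, 1.48 and 4.99, on 8 to 55 counts. Ndufab1, the acyl carrier protein that also serves fatty acid synthesis in the mitochondrion, had 4.65 to 7.47 CPM, and Ndufc1 0.741 to 2.49. The abundant accessory subunits were steadier: Ndufc2 had 94.5, 91.1 and 93.2 CPM against 86.9, 94.5 and 81.7, Ndufb11 75.6, 85.5 and 70.2 against 77.2, 74.1 and 84.2, and Ndufb10 76.1, 68.5 and 66.6 against 74.6, 79.3 and 75.2.

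In complex II, Sdha had 212, 216 and 191 CPM in RAG1-/-, against 188, 202 and 185 in RAG1-/- Sgo1-/+, Sdhb, the iron-sulfur subunit, had 23.1, 18.0 and 19.8 against 20.2, 18.2 and 13.1, and Sdhc, a membrane anchor, had 141, 139 and 133 against 104, 121 and 135. Each overlapped, although their sum did not. In complex III, Uqcrc2, a core subunit of the matrix side, had 76.1, 84.2 and 88.1 CPM against 67.5, 62.2 and 69.6 (log2 fold change -0.32, SE 0.12, edgeR unadjusted P = 0.0267), and the groups were apart, with 16.5% of its 75-base words also in another gene's transcripts. Its partner Uqcrc1 gave 44.7, 40.0 and 38.6 CPM against 44.9, 42.4 and 47.1. The electron carriers of complex III overlapped: Uqcrfs1, the Rieske iron-sulfur protein, at 123.7 to 148.4 CPM over the 6 libraries and Cyc1, cytochrome c1, at 59.6 to 93.6. Of the small subunits, Uqcrh, the hinge protein at the cytochrome c1 side, had 77.6, 82.6 and 97.8 CPM against 47.7, 67.8 and 85.2, with replicate 6 above 2 of the RAG1-/- libraries. Uqcrq (66.9 to 102 CPM), Uqcr10 (73.7 to 96.0 CPM) and Uqcrb (23.5 to 44.6 CPM) overlapped too. Each had both its lowest and its highest value in RAG1-/- Sgo1-/+, for Uqcr10 just above replicate 1 (96.0 against 95.8 CPM).

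In ATP synthase, Atp5e, the small epsilon subunit of the central stalk, had 45.9, 44.6 and 38.7 CPM in RAG1-/-, against 37.2, 34.3 and 24.3 in RAG1-/- Sgo1-/+ (a log2 fold change of -0.42, SE 0.17, edgeR unadjusted P = 0.0358), with the groups apart, and a log2 fold change of -0.27 without replicate 6. Atp5mpl, a small membrane subunit, had 27.2, 35.4 and 23.6 CPM against 16.6, 23.7 and 19.7 (-0.52, SE 0.21, edgeR unadjusted P = 0.0317), with replicate 5 level with replicate 3. Atp5g3 had 241, 250 and 263 CPM against 175, 239 and 217, apart by 1.79 CPM at the nearest (-0.26, SE 0.14, edgeR unadjusted P = 0.0954), and the log2 fold change was -0.14 without replicate 4. The groups overlapped in the catalytic head: Atp5a1 (alpha) had 473, 463 and 457 CPM against 419, 461 and 434, Atp5b (beta) 385, 320 and 311 against 398, 343 and 335, and Atp5c1 (gamma) 39.5, 33.9 and 43.4 against 42.0, 37.4 and 51.2. Of the peripheral stalk, which holds the head still, Atp5pb had 86.1, 90.1 and 105.5 CPM against 76.8, 88.2 and 83.9 and Atp5j 74.2, 67.3 and 87.9 against 82.2, 73.2 and 68.0. Both overlapped, as did Atp5h, which was highest in replicate 2 (30.1 CPM). Atp5d (delta), the neighbour of Atp5e in the central stalk, had 112, 87.7 and 94.3 CPM against 101, 103 and 99.8, and the groups overlapped. Atp5k, which helps ATP synthase to pair up, had 0 to 13 counts. Atp5g1, another c-subunit gene, had 46 to 115 counts and overlapped.

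**Figure D3:**
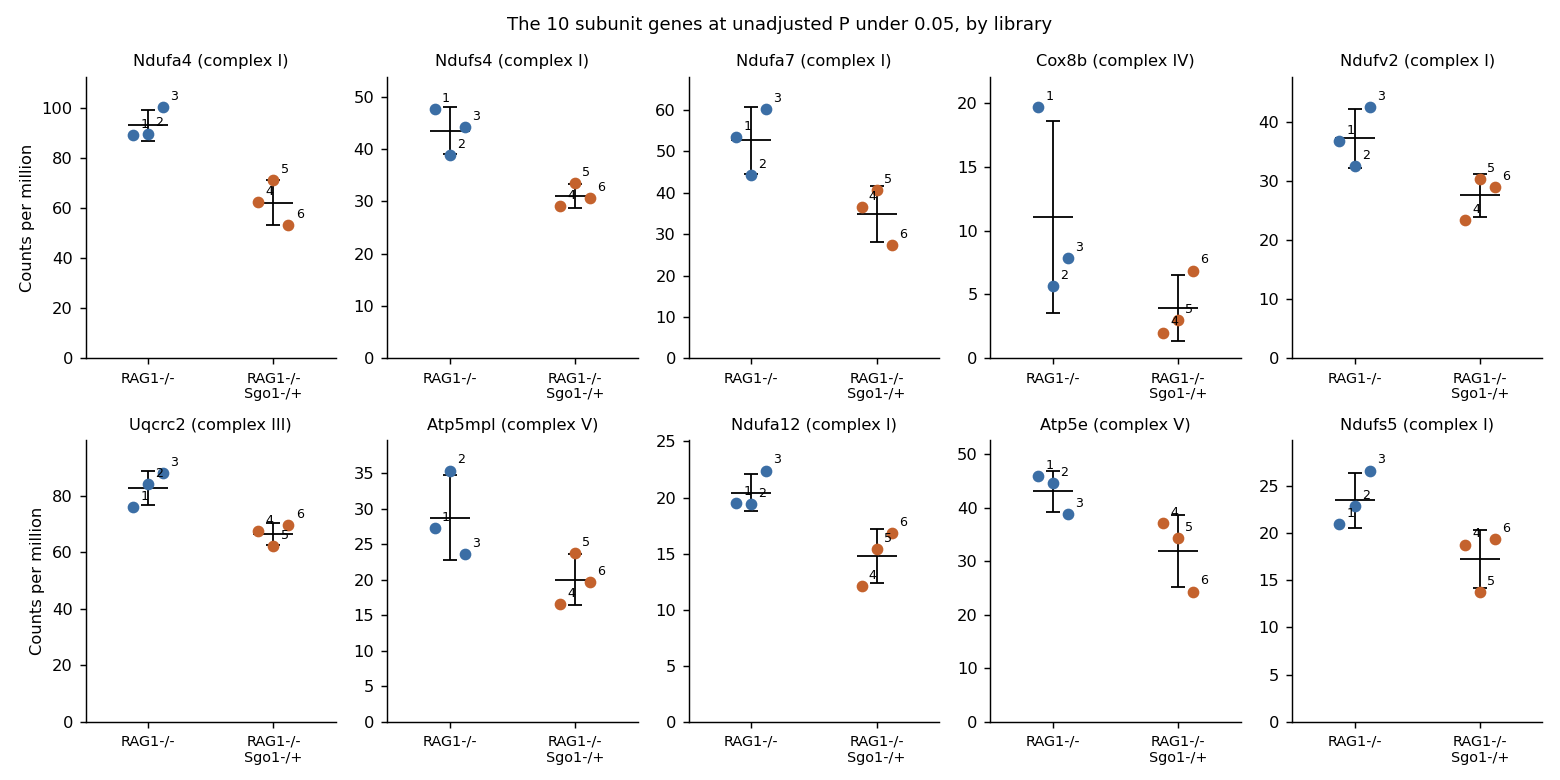
CPM (y axis, each from 0) in the 3 RAG1-/- (blue) and 3 RAG1-/- Sgo1-/+ (orange) libraries for the 10 members at an unadjusted P under 0.05. Numbers give the replicate, the wide bar is the mean and the whiskers are 1 SD; the groups overlap for Cox8b and Atp5mpl and do not overlap for the other 8.

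In complex IV the abundant Cox subunits overlapped between the groups. Cox4i1 had 180, 150 and 165 CPM in RAG1-/-, against 155, 168 and 191 in RAG1-/- Sgo1-/+, and Cox6a1 had 148, 136 and 145 against 139, 135 and 136. Cox4i2 had 14.5, 14.5 and 11.8 CPM against 15.4, 12.6 and 9.05. Cox7a2l, which helps join complexes III and IV into supercomplexes, had 202, 211 and 228 CPM against 179, 209 and 193. Ndufa4, counted with complex I here, had the groups apart. Among the 15 tested Cox genes Cox7a2 was the 1 with the groups apart (6.67%, against 5.54% of all tested genes). It had 50.7, 42.4 and 42.1 CPM against 35.4, 40.2 and 39.3 (log2 fold change -0.24, SE 0.14, edgeR unadjusted P = 0.118). That log2 fold change was -0.14 without replicate 1, the female library, and -0.13 with all libraries thinned to the depth of the smallest. Cox6c and Cox7b, further widespread subunits, had 7.41 to 17.2 and 31.1 to 48.9 CPM. Cox5a and Cox5b, nuclear subunits that sit on the mitochondrially encoded core, had 16.4, 14.3 and 13.3 against 13.5, 13.3 and 20.6 CPM and 8.01, 5.25 and 9.08 against 5.45, 5.93 and 9.67 CPM, each highest in replicate 6. Cox6b1 was also highest there (70.5 CPM) and lowest in replicate 4 (41.8 CPM).

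Cox8b had the largest log2 fold change of any tested member. It had 184, 28 and 52 counts in RAG1-/-, against 10, 16 and 22 in RAG1-/- Sgo1-/+, or 19.6, 5.66 and 7.87 CPM against 2.02, 2.96 and 6.86 (log2 fold change -1.58, SE 0.56, edgeR unadjusted P = 0.0176, adjusted P = 0.832). The groups overlapped, since replicate 6 lay above replicate 2, and without replicate 1 the log2 fold change was -0.84. Cox8b is a form of striated muscle and brown fat, and replicate 1 was also the library with the most white adipocyte markers, 729 CPM against 60.6 to 115, with all 6 of these genes below 0 and 4 of 6 at an unadjusted P under 0.05. Ucp1, which defines brown fat, had 12.2 CPM in replicate 1 and was at 0 in the other 5, and the 4 brown adipocyte markers summed to 24.2 CPM there and 3.03 to 8.15 elsewhere. The 12 cardiac muscle markers summed to 289, 187 and 339 CPM in RAG1-/-, against 215, 227 and 319 in RAG1-/- Sgo1-/+, with replicate 2 the lowest and replicates 3 and 6 the highest. The part of these cells in the Cox8b level was not tested.

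**Figure D4:**
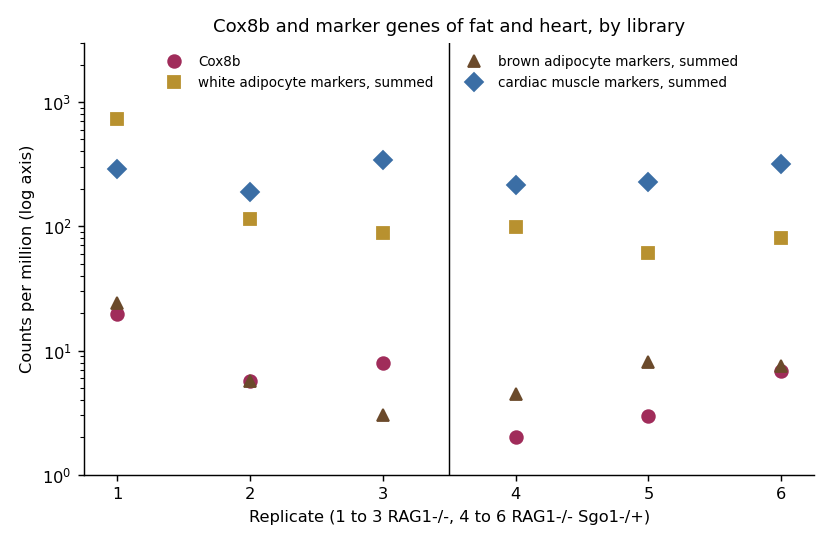
CPM (y axis, log scale) of Cox8b and of the summed white adipocyte, brown adipocyte and cardiac muscle markers in each library (x axis, replicates 1 to 3 RAG1-/- and 4 to 6 RAG1-/- Sgo1-/+). Cox8b and both fat marker sums are highest in replicate 1, at 19.6, 729 and 24.2.

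Members of few counts swung most, such as Atp5md, a small ATP synthase subunit, with 3, 4 and 0 counts against 0, 1 and 5. Atp5o, the stalk subunit known as OSCP, had the groups apart at low level (10.04, 8.69 and 8.32 CPM against 7.88, 7.97 and 7.49), but 34.2% of its 75-base words occur in other transcripts, and its log2 fold change of -0.21 was -0.13 without replicate 1. Median deviations of all tested members from their own mean, on the log2 scale, were 0.13, 0.03 and 0.07 in replicates 1, 2 and 3 and -0.08, -0.06 and -0.04 in replicates 4, 5 and 6. Replicate 2, the library with B cell transcripts, was thus nearest to the RAG1-/- Sgo1-/+ group, and complexes III and IV were below their mean in it (-0.04 and -0.07).

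**Figure D5:**
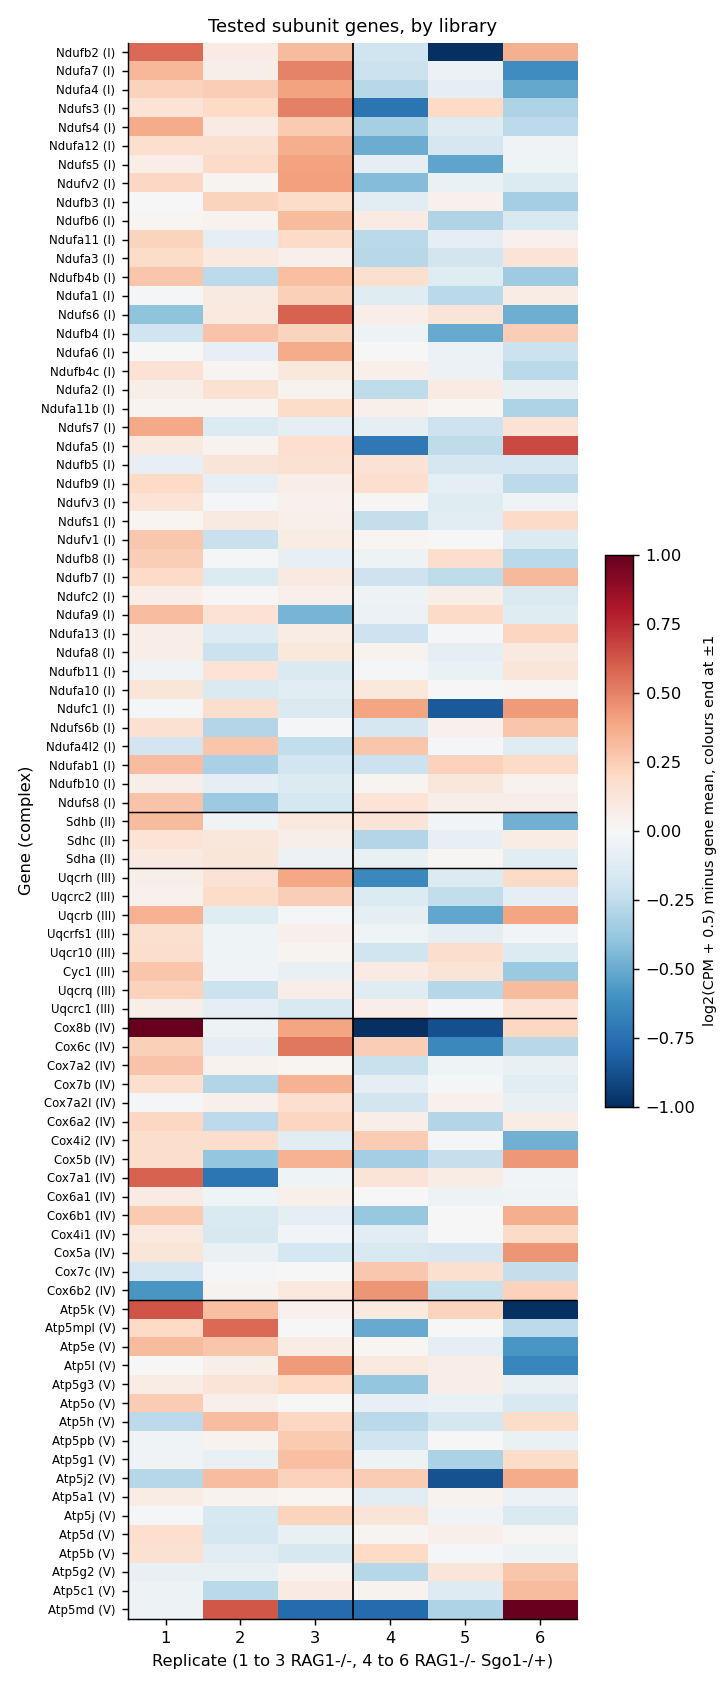
Tested members (84 rows of the 85, with 1 left out, each with its complex) in the 6 libraries (columns), coloured by log2(CPM + 0.5) minus the gene's mean, red above and blue below, with colours ending at 1 on either side. Genes are ordered in each complex by log2 fold change, and the black vertical line parts RAG1-/- from RAG1-/- Sgo1-/+.

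Genes that build, run or feed the chain were read from lists of their own. Assembly factors, which put the complexes together, had a median log2 fold change of 0.01 over 47 tested genes, with 2 lower (4.26%) and 1 higher (2.13%) at an unadjusted P under 0.05, beside 2.52% and 3.15% of all tested genes: Sdhaf4 (complex II) had 24.4, 20.6 and 26.9 CPM against 19.0, 16.3 and 16.8, Pet100 (complex IV) 10.9, 12.5 and 12.3 against 5.05, 8.89 and 7.49, and Sco2 (copper delivery to complex IV) 7.37, 9.09 and 8.02 against 10.5, 11.9 and 15.9. Genes for the upkeep and transcription of mitochondrial DNA had a median of -0.02, and 0.04 without replicate 1 and 0.01 without replicate 6, with 0 of 14 at that P. Of the transcriptional regulators, 13 of 14 were tested, with a median of 0.06 that was -0.04 without replicate 2, and Pprc1, a coactivator of the PGC-1 family, was higher in RAG1-/- Sgo1-/+, at 21.2, 11.5 and 23.5 CPM in RAG1-/- against 38.4, 34.4 and 24.0 (log2 fold change 0.78, SE 0.27, edgeR unadjusted P = 0.0152, adjusted P = 0.832).

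Of the 16 genes of fatty acid oxidation, which supplies electrons to the chain, 15 were below 0 (93.8%, against 45.1% of all tested genes; median -0.17), and without replicate 1 10 were (median -0.10). At an unadjusted P under 0.05, 3 were lower (18.8%, against 2.52% of all tested genes) and 0 higher: Hadhb had 69.7, 74.4 and 72.2 CPM against 52.5, 51.5 and 62.7, Etfa 26.9, 35.8 and 27.1 against 16.4, 23.9 and 13.4, and Etfb 85.5, 83.0 and 72.6 against 68.3, 66.7 and 58.6. Hadhb carries out the last step of an oxidation cycle, and Etfa and Etfb form the flavoprotein that passes the electrons on. The citric acid cycle and pyruvate dehydrogenase list had a median of -0.08, which was -0.04 without replicate 1 and -0.05 without replicate 6, with 14 of 18 below 0 (77.8%). At that P, 2 of the 18 were lower (11.1%), and 0 without replicate 1: Dld at 138, 112 and 123 CPM against 103, 93.4 and 86.7 and Pdhb at 73.6, 60.0 and 61.9 against 52.1, 52.0 and 50.5. Both are subunits of pyruvate dehydrogenase, and Dld is shared with other dehydrogenases. Ogdh, a subunit of 1 of those, was named after its values were seen, as the gene of this list with the groups apart in the other direction, at 234, 210 and 191 CPM against 253, 247 and 254 (log2 fold change 0.25, SE 0.12, edgeR unadjusted P = 0.0697).

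Glycolysis had a median of 0.14, with 4 of 18 below 0. This went with replicate 6, the library with the highest macrophage marker sum, most of it Chil3. Its genes summed to 1484, 1395 and 1292 CPM in RAG1-/-, against 1348, 1389 and 1941 in RAG1-/- Sgo1-/+, and 14 of the 18 were highest in replicate 6. Without that library the median was 0.0076, with 9 of 18 below 0, and the mean sums were 1390 against 1369 CPM. The 1 gene of the list at an unadjusted P under 0.05 was Hk3, a hexokinase of myeloid cells. It had 43.7 CPM in replicate 6, against 2.22 to 5.74 elsewhere, and its log2 fold change of 2.43 was 0.68 without that library. Mitochondrial carriers and import had a median of -0.06, with 0 of 19 at that P. None of these lists was tested against the chain.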

How the data were processed

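Total RNA from lung was sequenced on an Illumina MiSeq as paired reads after TruSeq V2 library construction. The authors deposited counts per gene under Entrez Gene IDs, made with GeneSifter on an earlier build of the mouse genome than GRCm38. BWA and edgeR are named in the submitters' processing notes. How multiply mapped reads were handled is not given in the sources used here. Each column was given under 2 headings with identical values, and 1 was used. Of counts between 1 and 50, 75.4 to 77.7% were even, and halved counts were therefore added as an alternative after the data were seen. The deposited list of the authors' comparison holds fold changes and P-values and was not used.

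IDs were matched to RefSeq symbols (24048 of 25860). The members and gene lists were chosen with earlier results of these data known. The rule for named genes took isoform pairs, core subunits, the 10 members with the smallest P under 0.05, the 5 largest differences with the groups apart, the highest member per complex and up to 3 genes per list. It also asked for genes patterned like Cox8b and Cox4i2, which are not given, and X-linked members, Ndufc2's neighbour Ndufa4, Atp5md and Atp5o were added after their values were seen. Genes with at least 10 counts in all were fitted with edgeR 4.0.16 in R 4.3.3 (quasi-likelihood test, library size the total count, Benjamini-Hochberg adjustment over all 17231 genes). The fit was also run on simulated counts that had the same dispersion for every gene. A gene was called at an adjusted P under 0.05 and at least 2-fold. The SE is the log2 fold change over the square root of F. Transcript lengths, for 87 members, are medians over GENCODE transcripts linked to RefSeq. Shared sequence was counted in 75-base words. Single values of 1 member are not reported here. Of genes that fit the symbol rule in the reference, 2 have no row in the table. Alternatives were TMM and DESeq2 1.42.0 size factors, equal library sizes, no filter, filterByExpr, DESeq2, thinning to the smallest library, other thresholds, Ndufa4 and Ndufa4l2 counted with complex IV, no tissue-restricted isoforms, and each library left out.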

Additional observations from a re-analysis of the deposited data

How the results depend on the processing

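The counts of lower members at an unadjusted P under 0.05 were 8 with DESeq2 and 10 with TMM, DESeq2 size factors, no filter, filterByExpr, thinning or halved counts, and 0 were higher under every alternative. Leaving out 1 library gave 5 to 11 lower members, 0 to 1 genes called over the table and 0 members called. It gave medians of -0.17 to -0.10 for all members, -0.17 to -0.11 for complex I, -0.22 to -0.089 for II, -0.19 to -0.0079 for III, -0.15 to -0.056 for IV and -0.19 to -0.086 for V, and log2 ratios of the sums of -0.19 to -0.13, -0.18 to -0.11, -0.19 to -0.10, -0.13 to -0.04 and -0.10 to -0.06 for I to V and -0.15 to -0.09 over all members. Members with the groups apart numbered 16 to 22 lower and 0 to 6 higher with 1 library left out, when fewer libraries have to agree (8.51 to 12.1% of all genes lower, 10 to 15% higher). The 6 higher came without replicate 1, against 12.5% of all genes.

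TMM moved the medians of complexes I and V to -0.16 and -0.17 and the complex V ratio to -0.11, and 18 members (21.2%, against 7.13% of genes) were then apart and lower. Without a filter the complex II median was -0.15. Thinning moved the complex IV median to -0.012. After thinning 8 members (9.64%, against 5.32% of genes) were apart and lower, and 2 members were apart and higher, against 6.63% of genes. DESeq2 called 1 gene, and an unadjusted P with at least 2-fold called 233. Equal library sizes, which leave the unequal depth of the groups in the values, moved the median of all genes to -0.59. Then 72 genes were called, 61 lower and 11 higher, among them 1 member (Cox8b), with 22 members lower at an unadjusted P under 0.05 (25.9%, against 9.31% of all genes), 20 apart and lower (23.5%, against 16.6%), a median of -0.77, a log2 ratio of the sum over all members of -0.75, medians by complex I to V of -0.76, -0.85, -0.77, -0.75 and -0.79 and log2 ratios of the sums of -0.79, -0.78, -0.80, -0.73 and -0.71. No paired analysis was possible because the labels give no pairing between mice of the 2 groups. The smallest library held 3205822 counts, where 3 counts stand for 0.936 CPM, so levels of members near or under that were not measurable in it.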
